A study of Mus musculus with 6 samples.

Results

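Cell division genes encode the proteins with which a cell copies its DNA and then parts the copies between its daughters. A list of 45 such genes was followed in *Clk4*-cKO hearts given either AAV NEXN-S437E or AAV NEXN-WT. The list was drawn up by gene name, with earlier results of these data known, and every probe that carries a listed symbol on the Agilent mouse array was taken, 86 of the 56605 probes that are not controls. A probe was tested if the scanner flagged it as well above background throughout a group, on every array of NEXN-WT, of NEXN-S437E or of both. That left 41 probes of 34 members, among 22998 probes of 13747 genes in the whole experiment, and the other 11 members had no tested probe.

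All 6 mice were young C57BL/6J males. In all of them the kinase gene *Clk4* carried loxP sites and was removed from cardiomyocytes by MerCreMer, an inducible Cre that the α-MHC promoter drives and that tamoxifen switches on, so that other cells of the heart kept the gene. The 3 NEXN-WT hearts had received the unmodified sequence of the Z-disc protein nexilin, and the 3 NEXN-S437E hearts a nexilin with glutamate in place of a serine that CLK4 phosphorylates, a mimic of the phosphorylated protein. Both were carried by AAV9 with a CMV promoter, which is not restricted to cardiomyocytes, followed by GFP, and were injected before tamoxifen was given. *Clk4*-cKO hearts without nexilin vector and hearts with intact *Clk4* were not analysed here. Total RNA of the myocardium was labelled with Cy3 and hybridised to 1 array per sample, and all arrays shared 1 slide and 1 scan. The study's legend to these arrays counts animals, so each array was taken as a separate mouse.

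In a dividing cell the MCM2 to MCM7 proteins are loaded onto replication origins as the helicase that opens the DNA, PCNA clamps the polymerases to it, and ribonucleotide reductase, thymidylate synthase and thymidine kinase supply its building blocks. Cyclins B and A with CDK1 then drive mitosis, the Aurora and Polo kinases and the chromosomal passenger complex build and check the spindle, and the anaphase-promoting complex with its activator CDC20 ends it by marking cyclin B for destruction. Most cardiomyocytes of an adult mouse no longer divide, and dividing cells in an adult heart are mostly fibroblasts, endothelial cells and cells of the blood and immune system. In RNA of whole myocardium, fewer cycling cells and less RNA per cycling cell cannot be told apart.

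Cell division genes did not separate the 2 vectors. None of the 41 probes had an adjusted p under 0.05 from limma with Benjamini-Hochberg adjustment over all tested probes, where 0.122% of all tested probes did, and the smallest adjusted p among them was 0.185. None was at least 2-fold different with an unadjusted p under 0.05, a rule that 2.63% of all tested probes met. At an unadjusted p under 0.05 alone, none was lower with NEXN-S437E, against 8.12% of all tested probes, and 1 was higher, against 7.65%. That probe belongs to *Cenpf*, which encodes a large protein of the kinetochore and the nuclear matrix that accumulates in G2. With 3 arrays a group the intervals were wide, and for 19 of the 34 genes the 95% interval of the difference reached a level 2-fold lower or beyond, so that changes of that size cannot be told from none at this precision.

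**Figure D1:**
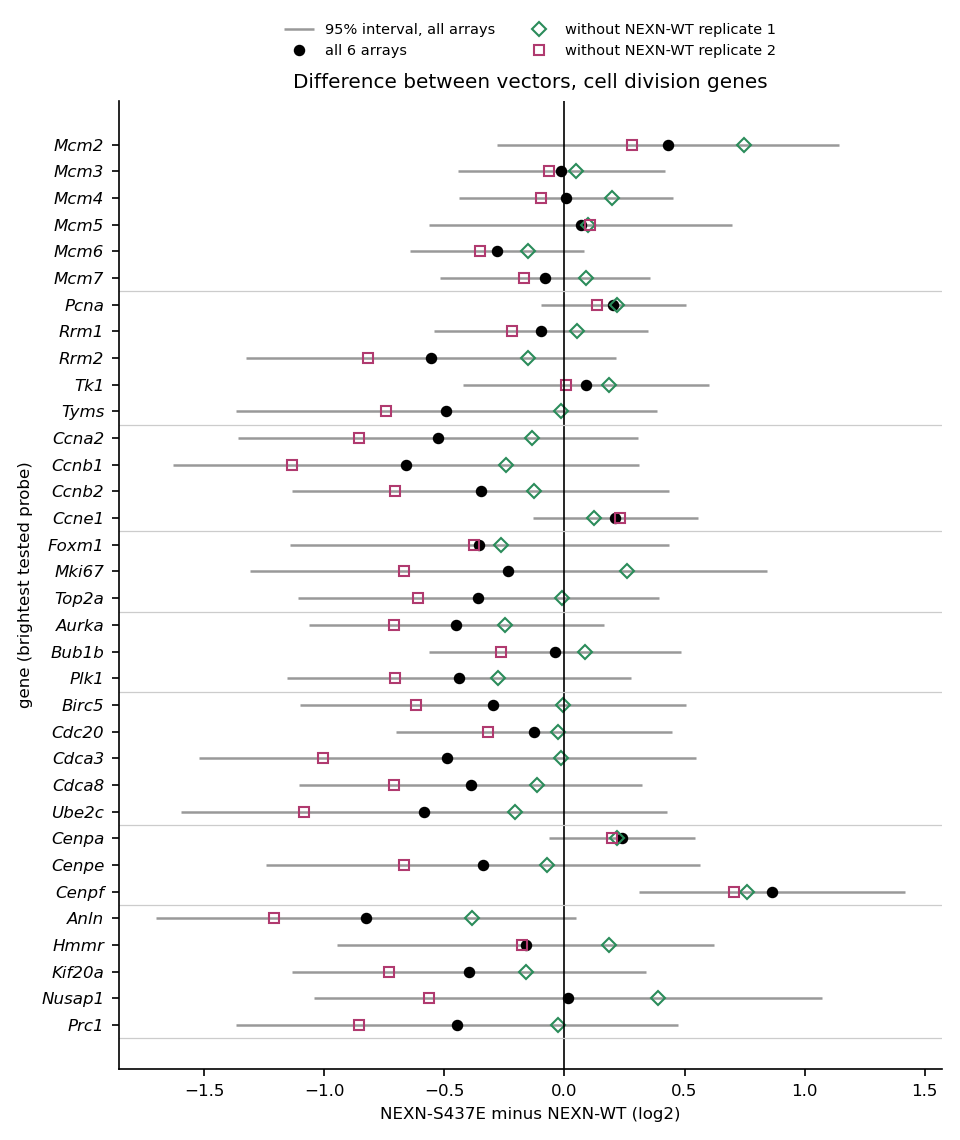
The x axis gives the log2 difference between NEXN-S437E and NEXN-WT and the y axis the 34 tested genes, grouped by role from licensing at the top to spindle at the bottom. Filled points with grey 95% intervals are from all 6 arrays, open diamonds leave out NEXN-WT replicate 1 and open squares NEXN-WT replicate 2. The interval of *Cenpf* alone lies clear of 0, and the square lies to the left of the diamond for 32 of 34 genes.

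Most of the differences nevertheless lay on the lower side. With the brightest tested probe standing for each gene, 25 of 34 genes were below 0 and 9 above, and the median log2 difference was −0.29, while the median over all tested probes was 0.02. The groups did not overlap for 2 genes that were lower, *Anln* and *Mcm6*, where 11.7% of all tested probes had no overlap in that direction, and for 3 that were higher, *Cenpf*, *Cenpa* and *Pcna*, where 13.3% had none. The lower median rested on NEXN-WT replicate 1. Without that array it was −0.01 and 19 of 34 genes were below 0. Without NEXN-WT replicate 2, in contrast, it was −0.59, and 13 of 34 genes were lower at an unadjusted p under 0.05, as were 16 of the 41 probes, against 7.91% of all tested probes lower in the same fit. None of those probes passed an adjusted p of 0.05 even then (smallest adjusted p = 0.212 from limma). The counts over the member genes therefore depended on which NEXN-WT arrays were kept.

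The values of each array show the same dependence. Relative to each gene's own mean over the 6 arrays, the median of the 34 genes was 0.62 on the log2 scale in NEXN-WT replicate 1, −0.32 in NEXN-WT replicate 2 and 0.07 in NEXN-WT replicate 3. In the NEXN-S437E hearts it was 0.13, −0.22 and −0.21. The highest and the lowest heart thus carried the same vector, and the NEXN-S437E hearts lay between them. Over all tested probes the same medians lay between −0.04 and 0.02. For 26 of the 34 genes, NEXN-WT replicate 1 was the highest and replicate 2 the lowest array of its group, an order that 15.9% of all tested probes shared. For 25 of the 34, NEXN-WT replicate 1 was the highest of all 6 arrays, against 27.6% of all tested probes. On the 75th percentile scale the counts were 25 and 25 of 34 genes, against 12.9% and 22.5% of all tested probes. The order was noticed in these values and is given as a description.

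The median SD of a gene within NEXN-WT was 0.57 for the 34 genes and 0.24 for the 19121 tested probes whose mean level lay in the members' range. Within NEXN-S437E it was 0.29 for the genes and 0.17 for those probes. Over the 34 genes the mean absolute log2 difference was 0.94 between NEXN-WT replicates 1 and 2, and 0.19 between NEXN-S437E replicates 2 and 3. Over all tested probes the same pairs of arrays differed by 0.37 and 0.19. NEXN-WT replicate 1 differed from every other array by 0.37 to 0.54 over all tested probes, so that it stood apart in many genes and not in cell division genes alone.

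**Figure D2:**
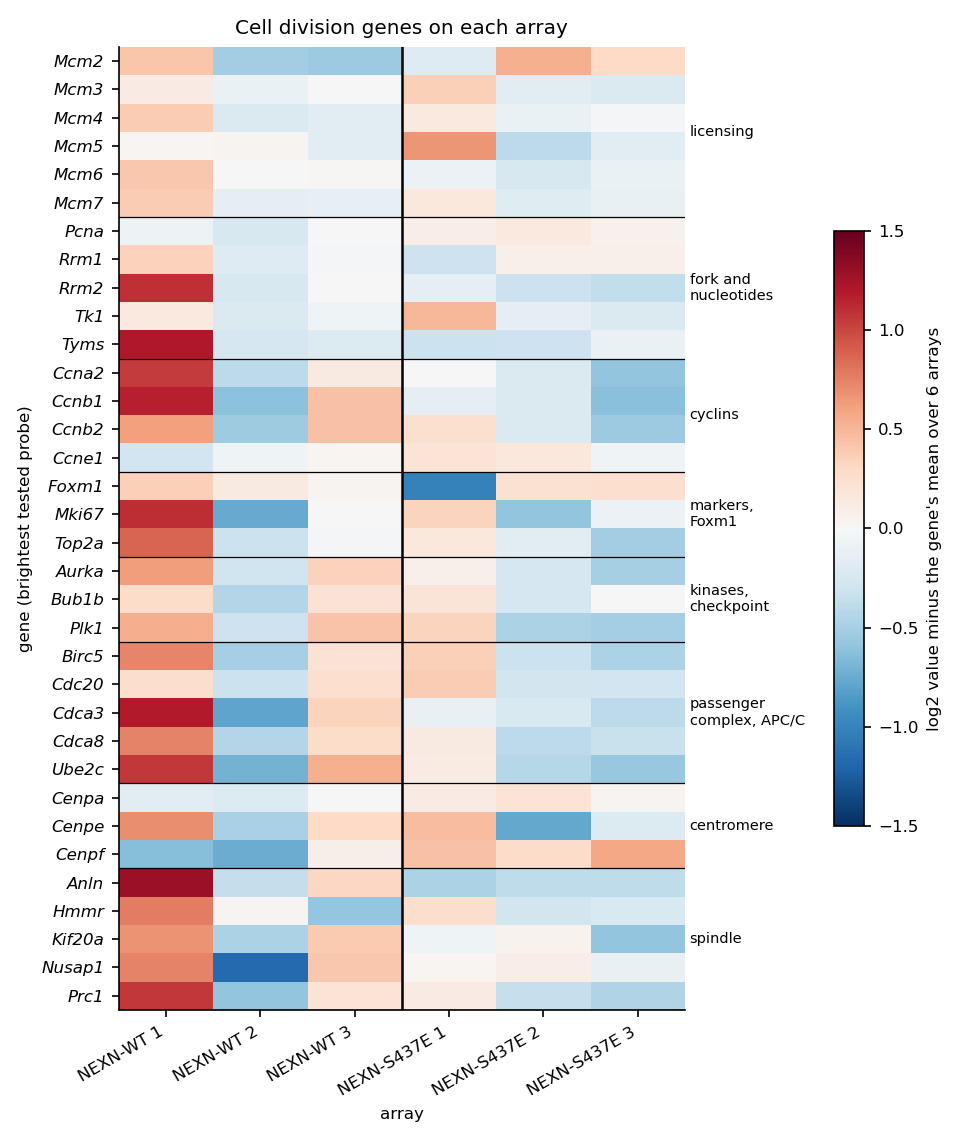
Each row is a tested gene, each column an array, and the colour is the log2 value minus the gene's mean over the 6 arrays, cut at 1.5 in either direction. The column of NEXN-WT replicate 1 is red for 30 of 34 genes and that of NEXN-WT replicate 2 blue for all but 4, while *Cenpf* and *Cenpa* are blue in both.

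The spread was not shared evenly between the phases of the cycle. For the 11 tested genes of DNA replication the array medians ran from −0.21 in NEXN-WT replicate 2 to 0.38 in NEXN-WT replicate 1, and the median SD within NEXN-WT was 0.28. For the other 23 genes, those of cyclins, kinases, centromere and spindle, they ran from −0.44 to 0.73 in the same arrays, and the median SD was 0.62. The order with NEXN-WT replicate 1 highest and replicate 2 lowest in the group was common to both, in 8 of the 11 and 18 of the 23. The median difference between the vectors was −0.01 for the replication genes and −0.35 for the other 23, of which 19 were below 0. Without NEXN-WT replicate 1 these medians were 0.09 and −0.03. The split by phase was made for description, and no test was run on it.

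**Figure D3:**
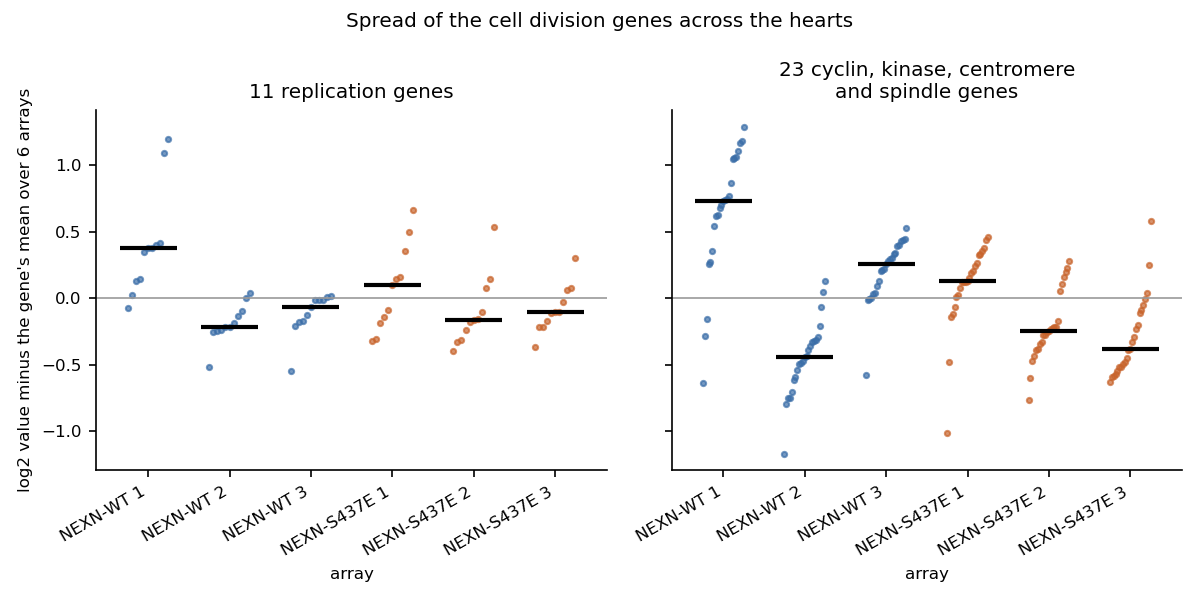
The y axis gives each gene's log2 value minus its mean over the 6 arrays, the x axis the 6 arrays, and the black bars the medians over 11 replication genes (left) and 23 genes of cyclins, kinases, centromere and spindle (right). The right panel spans from a median of −0.44 in NEXN-WT replicate 2 to 0.73 in NEXN-WT replicate 1, with the 3 NEXN-S437E hearts between them.

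The 2 sets of genes also differ in the sequence around their start sites. Promoters of genes that peak in mitosis commonly hold a cell cycle genes homology region, or CHR, at which the MuvB complex sits with its partners, and near it CCAAT boxes bound by NF-Y. Promoters of replication genes more often hold sites of the E2F factors. RefSeq promoters of build GRCm38.p6, from 250 bases before the start to 50 after it, were matched for 37 of the 45 genes, some with several starts, which gave 39 promoters. On either strand they were searched for the CHR (TTTGAA or TTCGAA), the CCAAT box (CCAAT) and an E2F site (TTTGGCGC, TTTCCCGC, TTTCGCGC or TTTGCCGC). These motifs do not overlap each other in kind, though E2F matches on opposite strands can share bases. A match is a run of letters and not a measured binding site.

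Among the 28 promoters of cyclin, kinase, centromere and spindle genes, 22 held a CHR match (78.6%) and 20 held a CHR and a CCAAT match together (71.4%). Over all 32851 promoters of the table the shares were 19.2% and 7.52%. Matches after the start are counted too, and in some genes, such as *Aurka* and *Plk1*, the only CHR match lies there. Among the 11 promoters of replication genes, 2 held a CHR match (18.2%), close to the share of all promoters, and 4 held an E2F match (36.4%), against 2.26% of all promoters and 3.57% of the other cell division promoters. CCAAT matches were common to both, at 81.8% of replication promoters and 78.6% of the others, against 37.4% of all promoters. The shares describe the 2 sets of promoters, untested genes included, and were not set against the values of single genes.

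**Figure D4:**
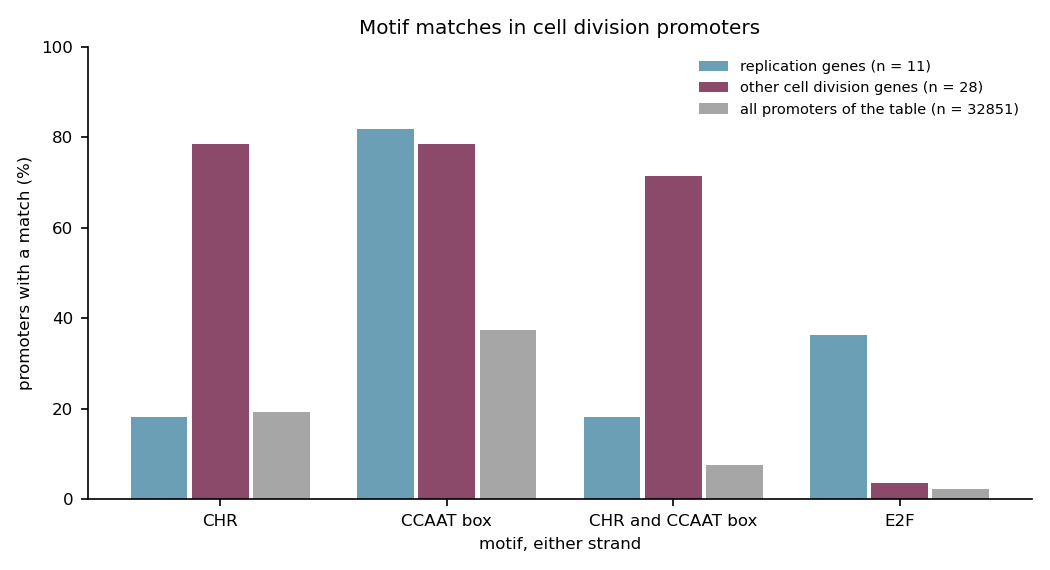
Bars give the percent of promoters, from 250 bases before to 50 after the start, that hold each motif on either strand, for 11 replication promoters, 28 other cell division promoters and all 32851 promoters. The CHR bar reaches 78.6% for the other cell division genes and 18.2% for the replication genes, and the E2F bar reaches 36.4% for the replication genes.

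Shown here are the 150 bases before the start of several members, chosen to stand for these kinds of promoter, 5′ to 3′ on the gene's own strand, with matches to the motifs in capitals. *Cdc20* (chr4:118437344-118437493), *Ube2c* (chr2:164769779-164769928), *Top2a* (chr11:99024190-99024339) and *Mki67* (chr7:135716380-135716529) stand for the mitotic pattern of CHR and CCAAT matches, *Cdk1* (chr10:69352913-69353062) holds all 3 kinds, *Mcm6* (chr1:128359706-128359855) shows E2F and CCAAT matches without a CHR, and *Cenpf* (chr1:189688087-189688236) is the gene that was higher with NEXN-S437E at an unadjusted p under 0.05, with CCAAT matches here and its CHR match just after the start, outside the bases shown. The *Ube2c* gene is on the plus strand and the others are on the minus strand.
Cdc20: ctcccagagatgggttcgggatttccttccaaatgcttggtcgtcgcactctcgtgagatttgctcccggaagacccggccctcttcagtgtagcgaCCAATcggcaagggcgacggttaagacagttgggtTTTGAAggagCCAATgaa
Ube2c: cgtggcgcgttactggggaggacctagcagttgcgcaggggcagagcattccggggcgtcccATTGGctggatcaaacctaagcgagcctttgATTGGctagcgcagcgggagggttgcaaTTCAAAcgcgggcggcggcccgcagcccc
Top2a: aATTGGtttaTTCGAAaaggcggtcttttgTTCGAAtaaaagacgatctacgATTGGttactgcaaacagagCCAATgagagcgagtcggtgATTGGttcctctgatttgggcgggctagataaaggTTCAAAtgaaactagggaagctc
Mki67: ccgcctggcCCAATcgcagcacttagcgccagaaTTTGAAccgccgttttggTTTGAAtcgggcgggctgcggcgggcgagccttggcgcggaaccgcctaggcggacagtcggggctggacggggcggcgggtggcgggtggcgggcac
Cdk1: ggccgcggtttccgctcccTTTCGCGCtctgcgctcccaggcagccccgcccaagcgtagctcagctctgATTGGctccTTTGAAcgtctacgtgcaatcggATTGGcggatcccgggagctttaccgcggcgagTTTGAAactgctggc
Mcm6: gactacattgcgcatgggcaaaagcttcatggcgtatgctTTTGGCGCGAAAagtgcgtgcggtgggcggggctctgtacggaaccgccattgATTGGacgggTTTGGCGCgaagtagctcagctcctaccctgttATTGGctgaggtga
Cenpf: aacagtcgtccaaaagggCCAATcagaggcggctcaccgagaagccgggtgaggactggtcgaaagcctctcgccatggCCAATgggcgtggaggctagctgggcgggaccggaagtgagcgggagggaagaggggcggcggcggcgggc

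Among the licensing genes, *Mcm6* read 10.59, 10.19 and 10.21 with NEXN-WT and 10.10, 9.96 and 10.09 with NEXN-S437E. All 3 NEXN-S437E values were below all 3 NEXN-WT values, and the difference was −0.28 (SE 0.15, adjusted p = 0.415 from limma). The other helicase subunits showed no common direction: the difference was 0.43 for *Mcm2*, −0.01 for *Mcm3*, 0.01 for *Mcm4*, 0.07 for *Mcm5* and −0.08 for *Mcm7*, all with overlap between the groups. *Mcm3* was the gene whose tested probes differed in sign, 3 below 0 and 1 above. The 4 differences ran from −0.09 to 0.04, all smaller than their errors, and the probes lie on chromosome 1 of mm9 between 20793119 and 20795879. *Mcm2*, at 0.75 without NEXN-WT replicate 1, had an unadjusted p of 0.0155 in that fit and is named after its values were seen.

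At the fork, *Pcna* read 10.697, 10.53 and 10.78 with NEXN-WT and 10.87, 10.92 and 10.84 with NEXN-S437E (probe on chromosome 2 of mm9, 132075420 to 132075557). The NEXN-S437E values were all higher, by 0.20 in the mean (SE 0.13, adjusted p = 0.471 from limma), so that the sliding clamp, often used as a marker of proliferation, was not lower with NEXN-S437E. The genes of nucleotide supply differed among themselves. *Rrm2*, the small subunit of ribonucleotide reductase that is made in S phase, had 9.001 in NEXN-WT replicate 1 and between 7.54 and 7.90 in the other 5 hearts, and *Tyms*, thymidylate synthase, had 8.67 and 7.15 to 7.37. In both the excess of a single NEXN-WT heart made most of the difference between the group means, −0.56 for *Rrm2* and −0.49 for *Tyms*, which became −0.15 and −0.02 without it. *Rrm1*, the large subunit, which is present through the cycle, differed by −0.10 and *Tk1*, the cytosolic thymidine kinase, by 0.09.

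Among the cyclins, *Ccnb1* read 6.96, 5.17 and 6.23 in the NEXN-WT hearts and 5.65, 5.57 and 5.16 in the NEXN-S437E hearts (probe on chromosome 13 of mm9, 101548722 to 101548781). The highest heart was NEXN-WT and the lowest values, 5.17 and 5.16, came from a heart of each group, and the difference of −0.66 (SE 0.41, adjusted p = 0.467 from limma) had a 95% interval from −1.63 to 0.31. *Ccna2*, the cyclin of S phase and early mitosis, and *Ccnb2* followed with −0.53 and −0.35 and with the same order of the NEXN-WT hearts. *Ccne1*, the cyclin that starts S phase, differed by 0.21 and did not share that order. The probe of the mitotic kinase gene *Cdk1*, on chromosome 10, cleared background on 2 arrays, both NEXN-WT, and was not tested. Its values were 4.29, 2.45 and 4.38 with NEXN-WT and 2.17, 3.61 and 1.81 with NEXN-S437E, with overlap, and near the lowest level that counts as well above background on these arrays (3.52 to 4.22) no fold can be given. *Ccne2* was above background on no array.

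*Mki67* encodes Ki-67, the protein that coats mitotic chromosomes and marks cycling cells in histology. With NEXN-WT it read 7.12, 5.26 and 6.01, and with NEXN-S437E 6.35, 5.42 and 5.93 (probe on chromosome 7 of mm9, 142881591 to 142881650). Highest and lowest heart were both NEXN-WT, 1.86 apart on the log2 scale, and the difference between the groups was −0.23 (SE 0.46, adjusted p = 0.824 from limma), which turned to 0.26 without NEXN-WT replicate 1. *Top2a*, the topoisomerase that untangles sister chromatids, had the same ends, 6.98 and 5.79 in NEXN-WT replicates 1 and 2 and 6.10 in replicate 3, though NEXN-S437E replicate 3 was lower still at 5.59 beside 6.26 and 5.94 for replicates 1 and 2. Its difference was −0.36 (SE 0.32, adjusted p = 0.606 from limma) and −0.01 without NEXN-WT replicate 1. *Foxm1*, the transcription factor that with the MuvB complex switches on mitotic genes, read 4.35, 4.12 and 4.03 with NEXN-WT and 2.98, 4.22 and 4.25 with NEXN-S437E. The 3 NEXN-WT hearts, which lay far apart in *Mki67*, lay within 0.32 of each other in *Foxm1*, and its difference of −0.35 (SE 0.34, adjusted p = 0.626 from limma) came from NEXN-S437E replicate 1, where the probe was not well above background. The kinase genes *Melk* and *Pbk* had no tested probe, each clearing background with NEXN-WT on 2 arrays and with NEXN-S437E on 1.

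**Figure D5:**
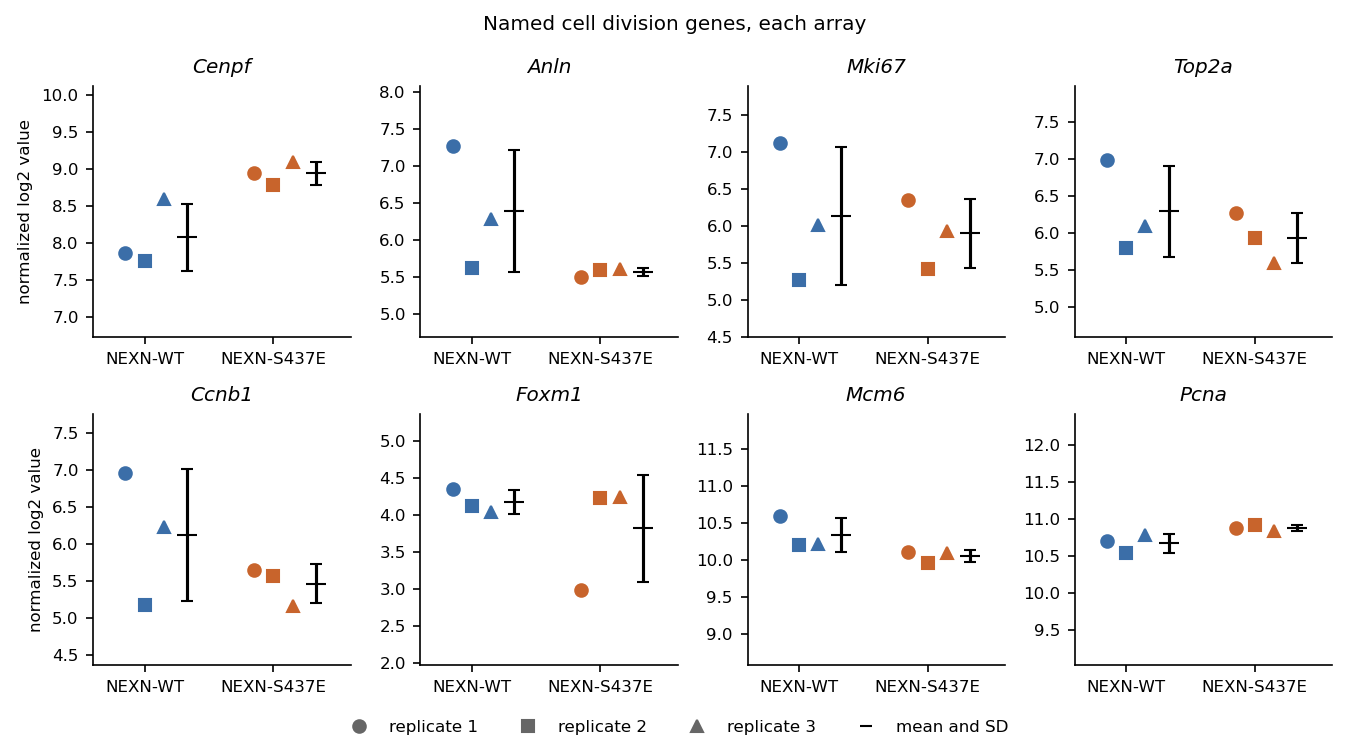
Each panel shows the normalized log2 values of a gene on the 6 arrays, with the shape of the point giving the replicate and the bar the group mean ± SD (n = 3); every y axis spans the same 3.4 log2 units at its own level. In *Anln*, *Mki67*, *Top2a* and *Ccnb1* the NEXN-WT replicate 1 point stands above all others, whereas in *Cenpf* and *Pcna* the 3 NEXN-S437E points lie above all 3 NEXN-WT points.

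Of the mitotic kinases, *Aurka*, which matures the spindle poles, and *Plk1*, which triggers mitotic entry, differed by −0.45 and −0.44, and the checkpoint kinase *Bub1b* by −0.04. All 3 had NEXN-WT replicate 1 highest and replicate 2 lowest in their group. The kinase genes *Bub1*, *Aurkb* and *Ttk* were above background on too few arrays to be tested, *Ttk* on none. The 5 genes of the passenger complex and of the ubiquitin ligases of mitosis all lay below 0 and all had the same order of the NEXN-WT hearts: *Birc5* (survivin, −0.30), *Cdca8* (borealin, −0.39), *Cdc20* (the activator of the anaphase-promoting complex, −0.13), *Ube2c* (its ubiquitin-conjugating enzyme, −0.59) and *Cdca3* (a trigger of mitotic entry, −0.49). *Ube2c* read 7.53, 5.77 and 6.999 with NEXN-WT and 6.59, 6.04 and 5.90 with NEXN-S437E. Its NEXN-WT range took in every NEXN-S437E value. Over the 5 genes the median difference was −0.39, and −0.03 without NEXN-WT replicate 1, with all 5 still below 0. In *Cdc20*, whose promoter has the same kinds of match, NEXN-S437E replicate 1 was the highest of the 6 hearts.

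The 3 tested centromere genes differed in direction. *Cenpf* read 7.87, 7.76 and 8.60 in the NEXN-WT hearts and 8.95, 8.79 and 9.09 in the NEXN-S437E hearts (probe on chromosome 1 of mm9, 191465934 to 191465993, minus strand). Every NEXN-S437E heart was above every NEXN-WT heart, and the mean was higher by 0.86 (SE 0.24, unadjusted p = 0.00735, adjusted p = 0.185 from limma), with a 95% interval from 0.31 to 1.42. The difference was 0.76 without NEXN-WT replicate 1, 0.71 without replicate 2 and 0.89 on the 75th percentile scale. The other *Cenpf* probe cleared background on 1 array alone, of NEXN-WT, so the difference rests on 1 probe. *Cenpa*, the histone H3 variant that marks centromeres, was higher by 0.24 (SE 0.13, adjusted p = 0.407 from limma), with 8.62, 8.58 and 8.78 against 8.90, 8.98 and 8.82 and no overlap. *Cenpe*, a kinesin that carries chromosomes to the spindle equator, differed by −0.34 and had NEXN-WT replicate 1 highest, as the spindle genes did.

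Of the spindle and midbody genes, *Anln* had the lowest difference among the 34 genes. Anillin scaffolds the ring that pinches the cell in cytokinesis. Its values were 7.27, 5.62 and 6.28 with NEXN-WT and 5.50, 5.60 and 5.60 with NEXN-S437E, a difference of −0.83 (SE 0.37, unadjusted p = 0.0608, adjusted p = 0.338 from limma). The groups did not overlap, yet NEXN-WT replicate 2 lay only 0.02 above the highest NEXN-S437E heart, and without NEXN-WT replicate 1 the difference was −0.39. *Kif20a*, a kinesin of cytokinesis, differed by −0.40, *Prc1*, which bundles the microtubules of the spindle midzone, by −0.45, *Hmmr*, a spindle pole protein that also binds hyaluronan, by −0.16, and *Nusap1*, which bundles microtubules near chromatin, by 0.01. *Nusap1* was at 3.74 in NEXN-WT replicate 2, where it was not well above background, and at 4.79 to 5.65 in the other 5 hearts, and its difference turned to −0.57 without that array. *Kif11*, *Kif23*, *Kif2c* and *Tpx2* had no tested probe.

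Over the 11 genes without a tested probe, 7 had a probe above background on more NEXN-WT than NEXN-S437E arrays, 1 on as many of each and 3 on none, and no fold is given for any of them. The like share over all untested genes was not counted, so the 7 are not read as a lower level with NEXN-S437E. Per array, 57 of the 86 member probes were above background in NEXN-WT replicate 1 and 40 to 46 in the other 5 hearts. The share of all probes above background was 45.4% in NEXN-WT replicate 1 and 39.3% to 43.2% in the others.

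Other genes of the cell cycle were read from lists outside the 45. Their counts stand beside 8.12% of all tested probes lower and 7.65% higher at an unadjusted p under 0.05, and counts as small as 1 or 2 of 17 are near those shares. Among G1 cyclins, kinases and phosphatases, 3 of 9 tested genes were lower at an unadjusted p under 0.05 and 1 higher. They were *Ccnd2* (cyclin D2, −0.62), *Cdc25b* (a phosphatase that activates CDK1, −0.50) and *Cdk6* (a partner of the D cyclins, −0.57), while *Ccnd1*, cyclin D1, named here after its value was seen, was higher by 0.39. None of these 4 overlapped between the groups, where 11.7% of all tested probes had no overlap as lower and 13.3% as higher. *Ccnd2* had 14.31, 14.19 and 13.89 with NEXN-WT and 13.79, 13.15 and 13.58 with NEXN-S437E, and its difference was −0.53 without NEXN-WT replicate 1 and −0.38 on the 75th percentile scale. Without that array the difference of *Cdk6* was −0.34. Of the 7 CDK inhibitors, *Cdkn2b*, which encodes the CDK4 and CDK6 inhibitor p15, was lower at an unadjusted p under 0.05 (difference −1.30, SE 0.35, adjusted p = 0.185 from limma). It read 6.84, 5.64 and 5.42 with NEXN-WT and 4.80, 4.45 and 4.75 with NEXN-S437E, and *Cdkn2c* and *Cdkn1b* followed with −0.27 and −0.20, past no threshold. The difference of *Cdkn2b* was −0.86 without NEXN-WT replicate 1, and its probe was above background on 2 of 3 NEXN-S437E arrays, so that it entered the test through NEXN-WT alone.

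Of 17 tested pocket proteins and E2F, MuvB and Myb factors, 2 were lower and none higher, *E2f5* (a repressor E2F, −0.56) and *E2f3* (an activator, −0.42), with *E2f2* next at −0.52. *E2f3* too was above background on 2 of 3 NEXN-S437E arrays and was tested through NEXN-WT alone. Of 17 origin and fork factors, 1 was higher, *Gmnn*, by 0.53, with 11.06, 11.58 and 11.63 against 11.83, 12.03 and 12.01, and by 0.35 without NEXN-WT replicate 1. Geminin holds back the loading of MCM proteins after S phase has begun. *Gins1* and *Pola1* were next, at 0.40 and 0.28. Of 11 kinetochore, cohesin and condensin genes, 1 was higher, *Spc24*, a subunit of the NDC80 complex that binds microtubules, by 0.77, from 6.50, 7.17 and 7.19 to 7.54, 7.79 and 7.85. *Cenpn*, tested in the same way through NEXN-WT alone, and *Espl1*, separase, were at −0.61 and −0.29. Of 6 tested DNA damage genes, 1 that is not named here was lower at an unadjusted p under 0.05. *Gadd45b* and *Ccng1* of that list were at −0.59 and 0.10, past no threshold. No tested gene of these lists passed an adjusted p of 0.05 (smallest adjusted p = 0.185 from limma). The order with NEXN-WT replicate 1 highest and replicate 2 lowest in the group was found in 6 of the 11 kinetochore, cohesin and condensin genes, in 7 of the 17 origin and fork factors, in 4 of the 17 pocket proteins and E2F, MuvB and Myb factors, in 1 of the 9 G1 genes and in 0 of 7 CDK inhibitors, against 15.9% of all tested probes.

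The tissue held its defining markers: all 7 cardiomyocyte genes were tested and none passed an unadjusted p of 0.05. Their summed level on the log2 scale lay between 18.24 and 18.41 in all 6 hearts, in columns normalized to identical distributions. On the 75th percentile scale the differences of these 7 genes ran from 0.23 (*Actc1*) to 0.60 (*Tnni3*). The median over all tested probes was 0.09 on that scale. Markers of cells that can divide did move between the hearts. The summed level of 6 macrophage markers was 13.82, 13.14 and 13.36 in NEXN-WT replicates 1 to 3, and 13.23 to 13.26 with NEXN-S437E. That of 5 endothelial markers was 13.66, 13.77 and 13.85 with NEXN-WT and 13.62 to 13.87 with NEXN-S437E. Within NEXN-WT, replicate 1 was thus highest for the macrophage list and lowest for the endothelial list. That of 5 smooth muscle and pericyte markers was 14.52, 14.78 and 14.49 with NEXN-WT and 14.06 to 14.59 with NEXN-S437E. That of 6 fibroblast markers was 17.24, 16.43 and 16.47 with NEXN-WT and 15.85 to 16.01 with NEXN-S437E, and 5 of the 6 were lower at an unadjusted p under 0.05, with none past the adjusted threshold. That of the T and NK cell markers was 8.92, 9.65 and 9.78 with NEXN-WT and 7.41 to 7.82 with NEXN-S437E. Of the 6 tested, 5 were lower and 3 passed the adjusted threshold, 1 of which was above background in no NEXN-S437E heart and so entered the test through NEXN-WT alone. This list was lowest in NEXN-WT replicate 1 within its group, unlike the cell division genes. Erythroid markers summed to 15.47 in NEXN-S437E replicate 1 and 14.14 in NEXN-WT replicate 3, against 12.13 to 13.25 in the other 4 hearts. Macrophage markers had 1 of 6 lower. Of the lists not yet counted, B cell markers had 1 of 2 tested genes lower, smooth muscle and pericytes 1 of 5 lower and platelets 1 of 2 higher. Neutrophils (3 tested) and endothelium (5 tested) had none in either direction. These counts stand beside 8.12% lower and 7.65% higher among all tested probes. The part of any of these cells in the cell division values was not tested.

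*Clk4* itself read 8.89, 8.47 and 8.63 with NEXN-WT and 8.81, 8.50 and 8.95 with NEXN-S437E on its brightest probe, and *Nexn* differed by −0.10 (SE 0.27) and 0.05 (SE 0.22) on 2 probes. Since both groups carry the deletion and a nexilin vector, and the probes were not placed on exons, these values do not check the labels. Row 1 of the slide held the NEXN-WT arrays together with the first NEXN-S437E array, and row 2 the other 2. Within row 1, where 1 NEXN-S437E heart stands against 3, the median difference of the 41 probes was 0.04.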

How the data were processed

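RNA of 6 *Clk4*-cKO hearts was measured on Agilent SurePrint G3 mouse arrays in a single colour, 3 arrays a group, grouped by their labels. The authors extracted spot intensities with Feature Extraction 10.7.1.1, which subtracts background, and deposited them with a table of normalized log2 values, 1 per probe, whose 6 columns have identical distributions, as quantile normalization leaves them. The normalization software is not given in the sources used here. Those deposited log2 values were the main values, and the deposited intensities, minus each array's 75th percentile on the log2 scale, an alternative. Detection was read from the scanner's flag for spots well above background, which held 41.9% to 47.8% of the spots of an array, and no spot was saturated. The 75th percentile of the intensities was 110 to 273. Precision is limited by the 3 arrays a group.

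Probes flagged as well above background throughout a group (22998) were fitted with limma 3.58.1 (lmFit, eBayes) in R 4.3.3 and p-values adjusted over all of them by Benjamini-Hochberg. For a gene with several tested probes the brightest was described. Tested on simulated data for this comparison (22998 probes, 200 changed), limma recovered 151 at the adjusted threshold, and 11 unchanged probes passed it too. Recovery at the size of the cell division differences was not tested. Named genes were members with an unadjusted p under 0.05, *Mki67*, *Top2a*, *Pcna*, *Cdk1*, *Ccnb1* and *Foxm1*, members with probes of opposite sign, and the 3 smallest p of each wider list; other members were named by role after their values were seen. The members and lists were chosen with earlier results of these data known. Some genes of the wider lists are not reported here. Probe positions are on mm9 as deposited and promoters on GRCm38.p6 (RefSeq); the builds were not mixed and probes were not placed on exons. The alternatives were other scalings, background correction, detection filters, tests, blocks, 1 probe per gene and each array left out. Figures were drawn with matplotlib 3.10.9.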

Additional observations from a re-analysis of the deposited data

How the results depend on the processing

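No alternative brought a cell division probe past an adjusted p of 0.05 in limma or in the methods' t-test, with smallest adjusted p values from 0.0788 (without NEXN-WT replicate 3) to 0.438 (without NEXN-S437E replicate 3). At an unadjusted p under 0.05 the count was 1 in the main analysis, and 2 with normexp background correction, with no filter on dim probes, with the methods' t-test and with an intensity trend. The slide row block is left out of these counts, since its difference rests on NEXN-S437E replicate 1 alone. Leaving out each array in turn gave 1 to 17 probes, and 0 to 4 past 2-fold as well. The highest counts, 17 and 4, came with NEXN-WT replicate 2 omitted, and with replicate 3 of that group omitted 1 probe was past 2-fold, *Cenpf*. On the 75th percentile scale without NEXN-WT replicate 1, an alternative chosen after seeing the data, the count was 2. The median difference of the 41 probes was −0.23, between −0.29 and −0.14 under the alternatives that kept all arrays apart from the slide row block, where it was 0.04, a fit in which the difference rests on NEXN-S437E replicate 1 against the NEXN-WT arrays. Leaving out each array in turn moved it between −0.41 (NEXN-WT replicate 2 omitted) and −0.02 (replicate 1 of that group omitted). *Nusap1*, at 0.01 with all arrays, ranged from −0.57 to 0.39 when arrays were left out, the lowest with NEXN-WT replicate 2 omitted. *Cenpf* was past the unadjusted threshold under each alternative except the slide row block (difference 0.87, adjusted p = 0.486 from limma). The cause of these shifts was not tested. The labels do not say whether the replicate numbers pair the samples. The deviations of arrays with the same number correlated at −0.14, −0.03 and −0.16, which does not settle it. With the replicate block the count was 1 and the median −0.23. Weak signal limits the list as a whole, with 29 of 86 probes above background on no array.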
